A study of Mus musculus with 12 samples.

Results

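Receptor tyrosine kinases other than those for PDGF, FGF, IGF1 and ROR ligands were followed across 12 microarrays of cultured mouse heart fibroblasts. The set was a list of 42 receptor genes, found by symbol in the platform annotation. Only probe sets annotated with 1 gene symbol were used, and the brightest probe set stood for each gene. On this rule 41 of the 42 receptors were measured, among 19938 genes in all, and Ephb2 had no probe set with a single symbol. The cells were cardiac colony-forming unit fibroblasts (cCFU-F), sorted from hearts as SCA1+ PDGFRα+ CD31- and grown as bulk passage 0 cultures from male C57BL/6 mice aged 12 weeks. The 4 groups held 3 arrays each: cells given PDGF-AB (50 ng/ml), cells given AG1296 at 10 uM or at 1 uM, and untreated cells. PDGF-AB is a growth factor dimer that binds both PDGF receptors, and AG1296 is a small-molecule inhibitor of PDGF receptor kinases that also acts on KIT. How long the cells were treated, and in which vehicle, is not given in the sources used. The labels do not say whether the 3 arrays of a group came from separate mice or cultures, so p-values here reflect only how much these arrays spread, which may be technical.

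Receptor tyrosine kinases span the cell membrane, bind a ligand outside and phosphorylate tyrosines inside, which starts signalling through the RAS-MAP kinase and PI3 kinase routes. In connective tissue cells they read growth factors, collagen, the surfaces of neighbouring cells and the remains of dying cells. TAM receptors (Axl, Mertk, Tyro3) bind GAS6 and protein S, DDR receptors bind collagen, Eph receptors bind membrane-held ephrins, and MET binds hepatocyte growth factor. The TIE and VEGF receptors are best known from blood vessel cells, and KIT from mast cells and other blood-forming cells.

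All values are log2 expression. Array medians lay between 4.02 and 4.13, and correlations between arrays were 0.992 to 0.996 within groups and 0.987 to 0.995 between groups. The PDGF-AB replicate 1 array had the lowest mean correlation with the other groups, at 0.990. All 8 fibroblast markers were above the median of gene means, which was 4.45. Pecam1, the gene of CD31, lay between 2.87 and 3.32, the pan-leukocyte gene Ptprc between 2.63 and 3.04, and the mast cell gene Cpa3 between 2.06 and 2.31. Sox10, a glial marker, lay between 3.47 and 4.04. These are single genes of longer marker lists. Above the median of gene means were 2 of 10 endothelial, 1 of 10 macrophage and 0 of 6 mast cell markers. Of 5 listed Schwann cell markers 3 were measured, and 1 of these was above it.

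Of the 41 receptors, 18 were above the median of gene means. A receptor was called where limma's adjusted p, taken over all 19938 genes within a comparison, was under 0.05. By this rule 9 receptors were called in at least 1 of the 6 comparisons between groups: Tek, Mertk, Met, Mst1r, Tyro3, Epha2, Ddr1, Ddr2 and Ptk7. Apart from Tek, these were all above the median of gene means. Among the 32 receptors called in no comparison, 22 were at or below it. How many of all genes were called in at least 1 of the 6 comparisons was not counted, so the 9 has no background beside it. Shares for each comparison are given below.

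Most of the calls were between the cells given the ligand and the cells given the inhibitor at its lower dose. In PDGF-AB against AG1296 1 uM, 8 of 41 receptors were called (19.5%), where 5.21% of all genes were. As the receptors were chosen with earlier results of these data known, such shares are descriptive only. Of the 10 PDGF, FGF, IGF1 and ROR receptors outside the list, 4 were called (40%): Pdgfra higher, and Fgfrl1, Igf1r and Ror1 lower. The Ror1 call was lost in 8 of the 12 fits that leave out 1 array. Among the listed receptors the calls were as follows. Met, Tyro3, Epha2, Ddr2 and Ptk7 were higher in PDGF-AB cells, and Tek, Mst1r and Ddr1 were lower; of all genes 2.28% were called higher and 2.93% lower. The count of 8 became 5 after median centring and 2 with only those 6 arrays, and leaving out an AG1296 1 uM array gave 4, 5 and 3 for replicates 1, 2 and 3, and leaving out PDGF-AB replicate 1 or 3 gave 4. In PDGF-AB against AG1296 10 uM, Mertk was higher and Ddr1 lower, which is 2 of 41 (4.88%) beside 3.42% of all genes, with 1.42% called higher and 2% lower. AG1296 1 uM against untreated gave 2 calls (4.88% of the receptors, beside 3.2% of all genes): Tek was higher and Met lower, where 1.88% of all genes were called higher and 1.33% lower. AG1296 10 uM against untreated gave 1 call (2.44%, beside 1.88% of all genes), which was Mertk, lower, as were 0.672% of all genes. Without PDGF-AB replicate 1 the 10 uM comparison had 2 calls. AG1296 1 uM against untreated had 1 call when any 1 of 9 arrays was left out, those whose removal lost the Met call. Both shares are near those of all genes. No receptor was called by limma in PDGF-AB against untreated cells, where 0.331% of all genes were. At an unadjusted p under 0.05 that comparison had 4 receptors, beside 8.55% of all genes, and every receptor's 95% interval lay within a log2 difference of 1 either way. The AG1296 10 uM cells against the AG1296 1 uM cells also gave 0 limma calls, with 0.376% of all genes called and 7 receptors at an unadjusted p under 0.05 beside 9.07% of all genes.

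Markers of fibroblasts, the cultured cells themselves, and of other cell types were called in PDGF-AB against AG1296 1 uM too, beside 5.21% of all genes. Calls were 2 of 7 pericyte (28.6%), 1 of 6 cardiomyocyte (16.7%), 3 of 8 fibroblast (37.5%) and 2 of 6 epithelial and mesothelial markers (33.3%). Endothelial and macrophage markers had 1 of 10 each (10%), and lymphatic, mast cell and Schwann cell markers had 0. Of the 7 pericyte markers, 6 of them below the median of gene means, Cspg4 was higher by 0.66 (limma adjusted p = 0.0317) and Notch3 by 0.54 (limma adjusted p = 0.00788). The Cspg4 call was lost when any 1 AG1296 1 uM array, PDGF-AB replicate 1 or PDGF-AB replicate 3 was left out (up to 0.138). The pericyte list mean was 3.96 to 4.02 in PDGF-AB arrays, 3.96 to 4.04 in AG1296 10 uM, 3.75 to 3.89 in AG1296 1 uM and 3.70 to 3.81 in untreated arrays. Of the 6 cardiomyocyte markers Tnnt2 was higher by 0.38 (limma adjusted p = 0.0258), a call lost in 4 of the 12 fits that leave out 1 array, after median centring and with only those 6 arrays. Among the 8 fibroblast markers Pdgfra was higher by 1.04 (limma adjusted p = 5.58e-06), Thy1 was higher by 0.41 (limma adjusted p = 0.0338) and Dcn differed by -2.16 (limma adjusted p = 3.83e-08). The Thy1 call was lost in 5 of the 12 fits that leave out 1 array and with only those 6 arrays. Of the epithelial and mesothelial markers, Upk3b differed by -1.03 (limma adjusted p = 1.21e-05) and Krt19 was higher by 0.57 (limma adjusted p = 0.0415). The Krt19 call was lost in 9 of the 12 fits that leave out 1 array, with the replicate block and with only those 6 arrays. Marker lists too were chosen with earlier results of these data known, so their shares are descriptive only. The part of these cell types in the receptor calls was not tested.

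A limma F test for any difference among the 4 groups called 5 receptors, Tek, Mertk, Ddr1, Epha2 and Mst1r, beside 5% of all genes. The count was 3 without AG1296 1 uM replicate 3, AG1296 10 uM replicate 1 or untreated replicate 1. The Mst1r call was lost in 9 of the 12 fits that leave out 1 array (adjusted p up to 0.139) and after quantile normalization (0.0612), and the Epha2 call in 7 of the 12 (up to 0.0784). The groups of 3 arrays did not overlap for 17 receptors in PDGF-AB against AG1296 1 uM, a share of 41.5% beside 21.8% of all genes. They did not overlap for 14 receptors in AG1296 1 uM against untreated cells, a share of 34.1% beside 20.3%. For PDGF-AB against untreated cells the number was 6, a share of 14.6% beside 13.3%. In AG1296 10 uM against untreated it was 7 (17.1% beside 18%), in AG1296 10 uM against 1 uM 9 (22% beside 15.9%) and in PDGF-AB against AG1296 10 uM 14 (34.1% beside 18.1%). The median log2 difference over the receptors was 0.07 in PDGF-AB against AG1296 1 uM, beside 0.03 over all genes. The comparisons share arrays: 3 of the 6 use the untreated arrays, 3 the PDGF-AB arrays and 3 those of each AG1296 dose.

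**Figure D1:**
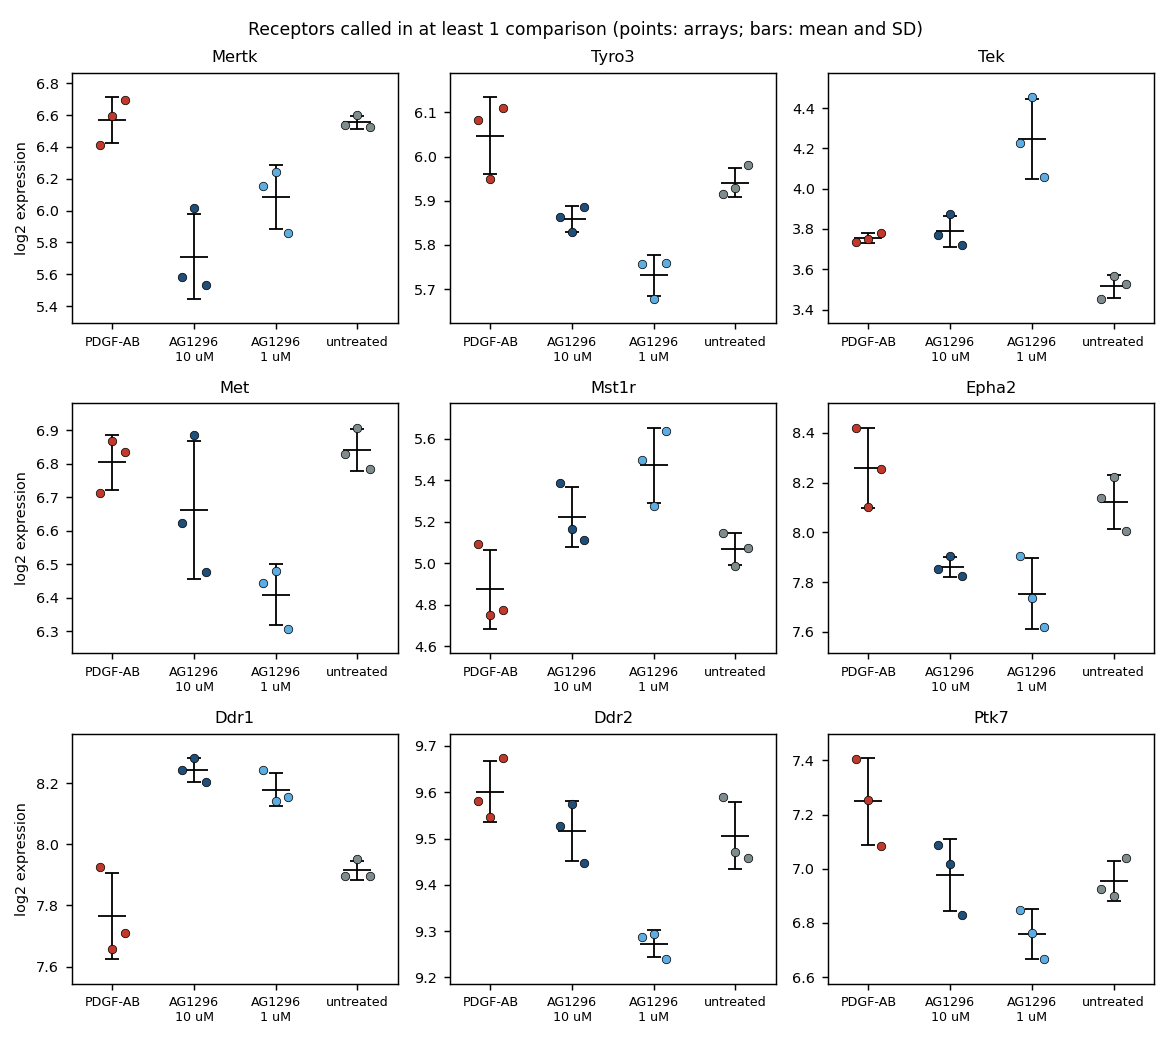
Log2 expression of the 9 receptors called in at least 1 comparison, by group. Points are arrays (3 a group), and bars are the group mean and SD. Tek is highest in the AG1296 1 uM arrays, from 4.06 to 4.45, and Mertk is lowest in AG1296 10 uM, from 5.53 to 6.02.

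**Figure D2:**
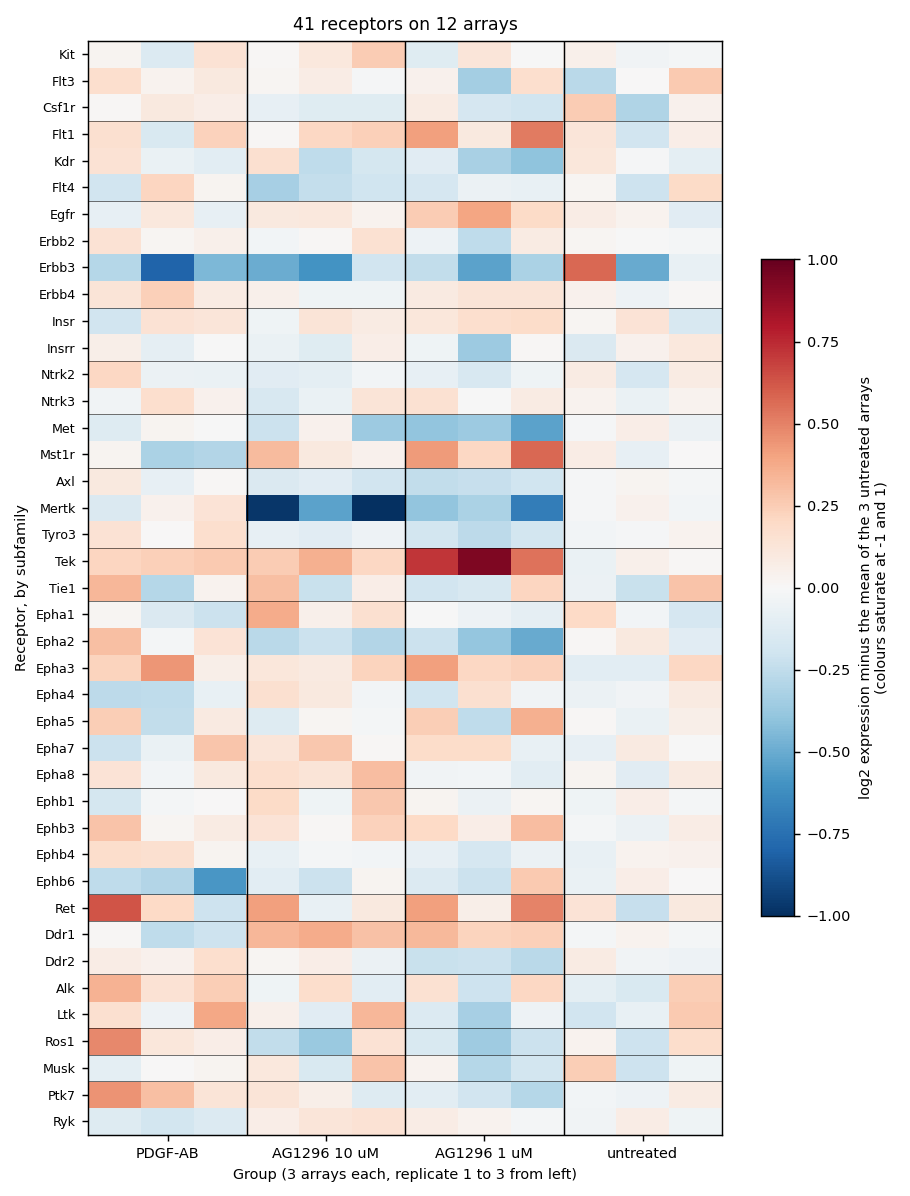
Log2 expression of each of the 41 measured receptors in each of the 12 arrays, as the difference from that receptor's mean over the 3 untreated arrays (colours saturate at -1 and 1). Rows are receptors by subfamily and columns are arrays by group. Mertk is bluest in the AG1296 10 uM arrays and Tek reddest in the AG1296 1 uM arrays.

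**Figure D3:**
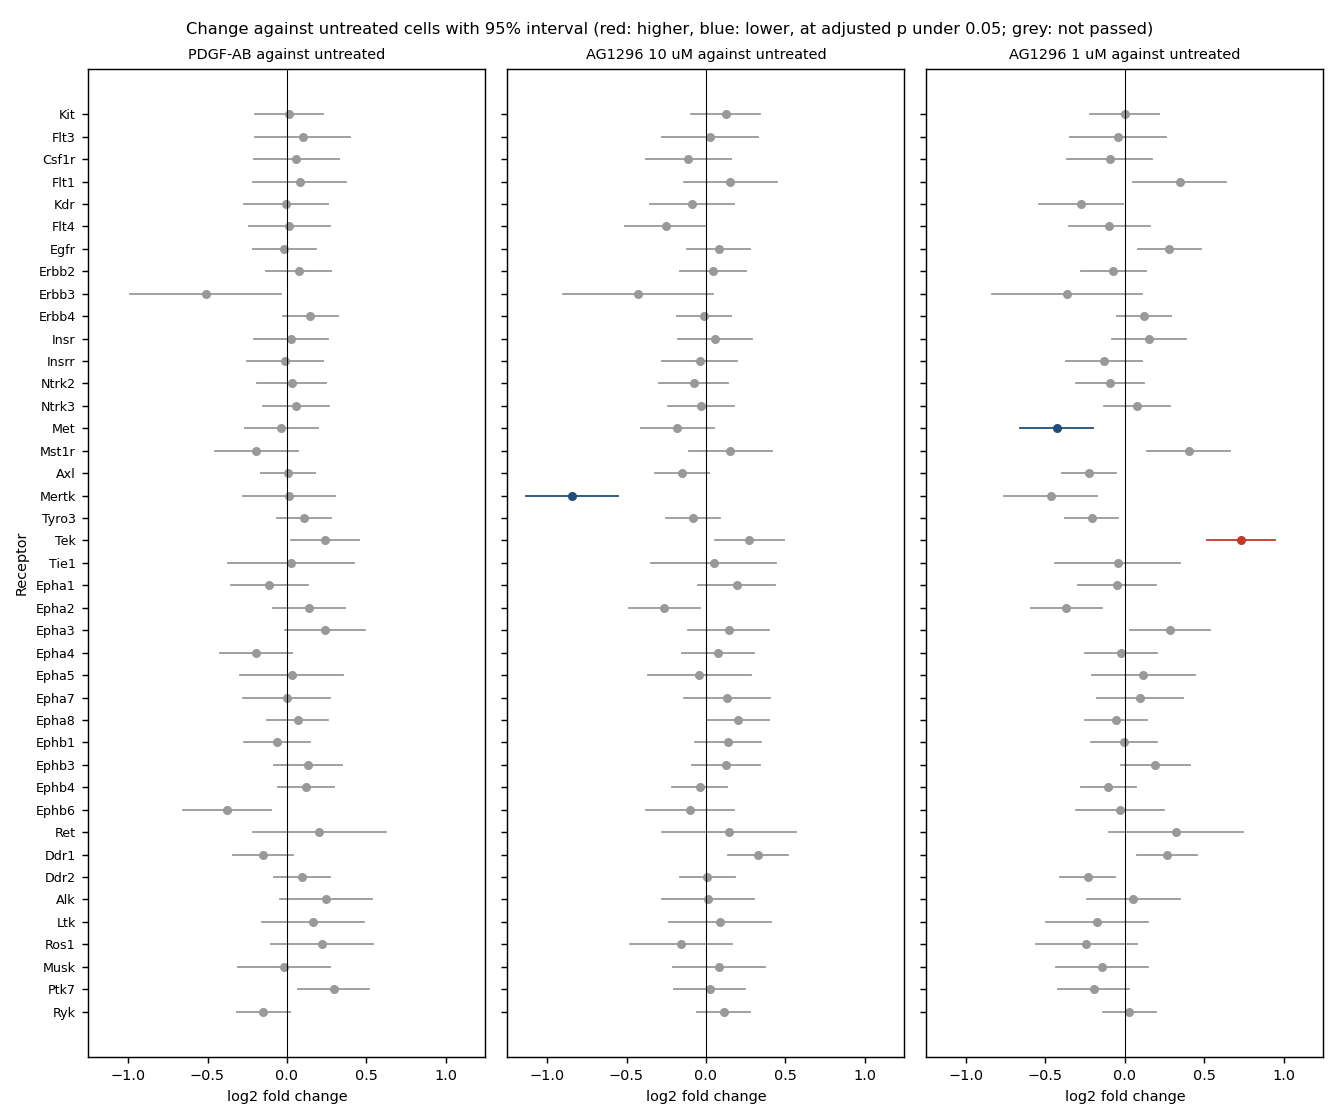
Log2 difference from untreated of each of the 41 receptors in PDGF-AB, AG1296 10 uM and AG1296 1 uM cells. Points are limma estimates and bars are unadjusted 95% intervals, red where called higher, blue where called lower and grey otherwise. Tek at 1 uM (0.73) and Mertk at 10 uM (-0.84) lie farthest from 0.

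**Figure D4:**
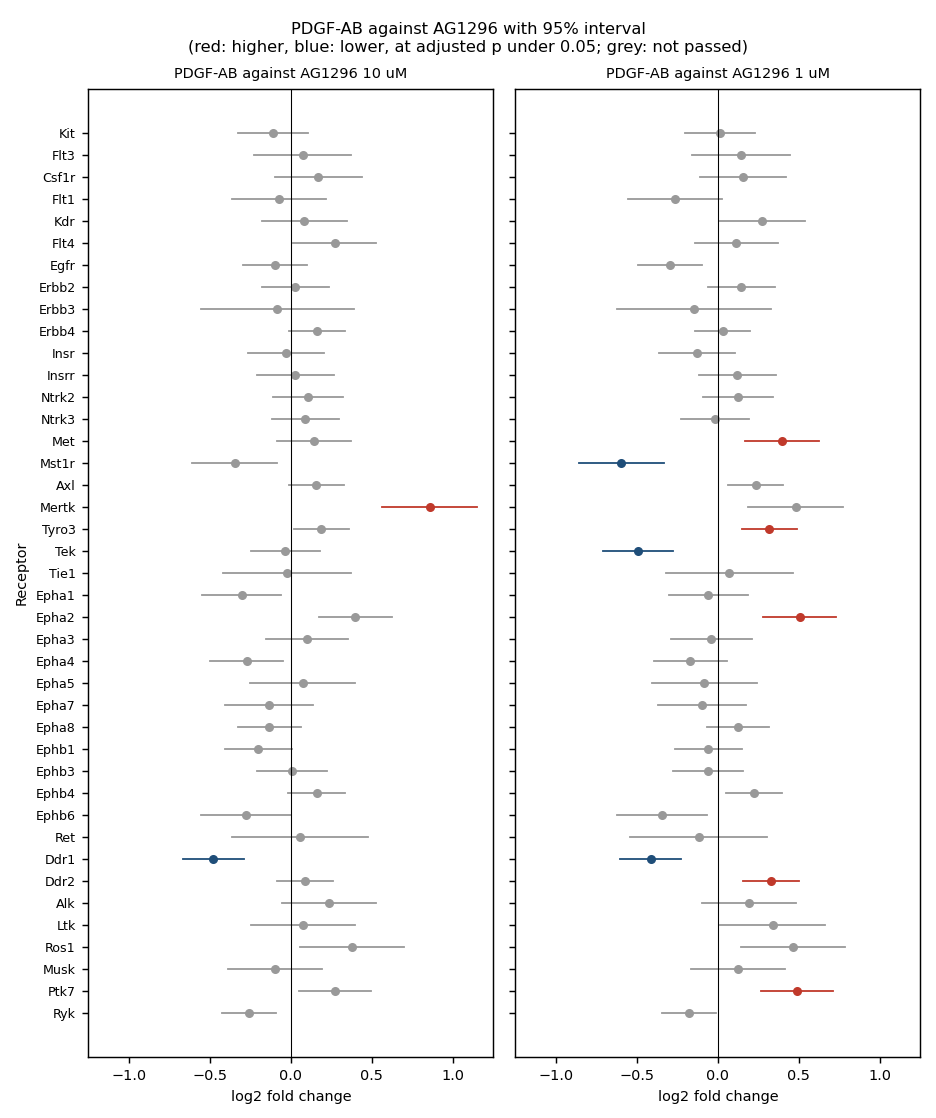
Log2 difference of PDGF-AB from AG1296 10 uM (left) and from AG1296 1 uM (right) for the 41 receptors, as limma estimates with unadjusted 95% intervals. Red and blue mark called receptors, higher and lower. Mertk (0.86 from AG1296 10 uM) and Mst1r (-0.60 from AG1296 1 uM) are the extremes.

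The promoters of the 3 receptors called against untreated cells are shown because their directions differ: Tek rose at 1 uM, Met fell at 1 uM, and Mertk fell at 10 uM. Each is the 250 bases before a transcript start in RefSeq on GRCm38.p6, plus strand: Tek at chr4:94739039-94739288, Mertk at chr2:128698665-128698914 and Met at chr6:17463707-17463956. The Mertk window ends just before the annotated gene start. The Tek window spans the annotated gene start (94739086), and the Met window lies after it, inside the gene (start 17463349). Capitals mark matches to the motifs named after the sequences.
Tek: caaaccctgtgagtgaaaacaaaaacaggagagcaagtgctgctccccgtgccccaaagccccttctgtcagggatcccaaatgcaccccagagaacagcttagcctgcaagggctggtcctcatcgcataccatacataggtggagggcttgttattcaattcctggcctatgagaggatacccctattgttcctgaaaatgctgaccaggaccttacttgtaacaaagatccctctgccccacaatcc
Mertk: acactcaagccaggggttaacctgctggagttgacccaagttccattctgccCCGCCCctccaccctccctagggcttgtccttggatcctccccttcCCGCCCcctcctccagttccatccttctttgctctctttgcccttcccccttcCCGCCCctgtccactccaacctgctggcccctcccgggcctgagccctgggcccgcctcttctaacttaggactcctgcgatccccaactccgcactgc
Met: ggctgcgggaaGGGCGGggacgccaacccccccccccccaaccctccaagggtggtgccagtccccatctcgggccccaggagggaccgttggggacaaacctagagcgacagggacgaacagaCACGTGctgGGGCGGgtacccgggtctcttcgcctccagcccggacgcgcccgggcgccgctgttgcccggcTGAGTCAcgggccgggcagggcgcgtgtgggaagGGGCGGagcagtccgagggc

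On both strands, 5 motifs were searched: AP-1 (TGANTCA), forkhead (GTAAACA), ETS (CCGGAAG), E-box (CACGTG) and GC box (GGGCGG). None of the capitals in these 3 promoters overlap. Tek had no match, Mertk had 3 GC boxes, and Met had 3 GC boxes, an AP-1 site and an E-box. Of all 27025 promoters in the table, 6.87% hold the AP-1 motif, 3.09% the forkhead motif, 7.05% the ETS motif, 6.05% the E-box and 32.9% the GC box. The GC box was in 24 of the 35 listed receptors with a promoter and in 7 of the 9 called ones. These are matches of letters only. The median GC content was 57.6% for called receptors, 62.8% for listed receptors and 52.0% for all promoters.

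The TAM receptors clear dying cells and restrain inflammation when bound to GAS6 or protein S. All 3 were above the median of gene means, and 2 of them were called. Mertk, the TAM receptor best known for engulfment of dying cells, was lower in AG1296 10 uM cells than in untreated and in PDGF-AB cells. Its values were 6.41, 6.60 and 6.69 in PDGF-AB cells, 5.58, 6.02 and 5.53 in AG1296 10 uM cells, 6.16, 6.24 and 5.86 in AG1296 1 uM cells and 6.54, 6.60 and 6.53 in untreated cells. All AG1296 arrays lay below all untreated and all PDGF-AB arrays, and 1 array of AG1296 10 uM lay within the range of AG1296 1 uM. The AG1296 10 uM log2 difference from untreated was -0.84 ± 0.14 (SE, n = 3 each; limma adjusted p = 0.00461), a 1.79-fold lower level. In PDGF-AB against AG1296 10 uM it was 0.86 ± 0.14 (limma adjusted p = 0.00201). Both calls held in all 19 alternatives. The AG1296 1 uM difference from untreated, -0.47, missed the threshold (limma adjusted p = 0.0916), as did PDGF-AB against AG1296 1 uM at 0.48 (limma adjusted p = 0.0614). Between the doses Mertk differed by -0.38 (AG1296 10 uM against 1 uM, limma adjusted p = 0.386), which was not called. PDGF-AB against untreated was 0.01 (limma adjusted p = 0.988).

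In bulk RNA, fewer cells expressing a receptor and less RNA per cell cannot be told apart. Mertk is also a macrophage gene. Of the 11 macrophage markers 10 were measured, and 9 of them were below the median of gene means. Their mean lay between 3.14 and 3.35 in PDGF-AB arrays, 3.25 and 3.36 in AG1296 10 uM, 3.26 and 3.32 in AG1296 1 uM, and 3.20 and 3.33 in untreated arrays. One of them, Lyz2 (lysozyme), was called: it was lower in PDGF-AB cells than in either AG1296 group, the opposite direction to Mertk. For Lyz2 the AG1296 1 uM comparison missed the threshold with PDGF-AB replicate 1, PDGF-AB replicate 3 or AG1296 1 uM replicate 2 left out (adjusted p up to 0.117). The part of such cells in the Mertk result was not tested.

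Tyro3 was called higher in PDGF-AB against AG1296 1 uM. It stood at 6.08, 5.95 and 6.11 in PDGF-AB cells, 5.86, 5.83 and 5.89 in AG1296 10 uM, 5.76, 5.68 and 5.76 in AG1296 1 uM, and 5.92, 5.93 and 5.98 in untreated cells. The PDGF-AB arrays lay above both AG1296 groups and overlapped the untreated arrays. The log2 difference was 0.32 ± 0.08 (SE, n = 3 each; limma adjusted p = 0.0326). It missed the threshold whichever AG1296 1 uM array was left out, without AG1296 10 uM replicate 1, and without PDGF-AB replicate 1 or 3, with the adjusted p at up to 0.131; it was 0.0561 after median centring and 0.134 with only those 6 arrays. Axl lay between 10.27 and 10.61 and was not called (PDGF-AB against AG1296 1 uM, 0.23, limma adjusted p = 0.129).

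Gas6, the TAM ligand, rose with both AG1296 doses. It was 7.56, 6.94 and 7.20 in PDGF-AB cells, 8.06, 8.18 and 7.92 in AG1296 10 uM, 8.22, 8.13 and 8.15 in AG1296 1 uM, and 7.13, 7.30 and 7.06 in untreated cells. All AG1296 arrays were above all the others. The log2 difference from untreated was 0.89 ± 0.13 at 10 uM (SE, n = 3 each; limma adjusted p = 0.00328) and 1.00 ± 0.13 at 1 uM (limma adjusted p = 0.000651). Pros1, which encodes protein S, was not called in any comparison.

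The TIE receptors bind angiopoietins. Tek (TIE2) rose in AG1296 1 uM cells and stayed a dim signal, below the median of gene means. Its values were 3.73, 3.75 and 3.78 in PDGF-AB cells, 3.77, 3.87 and 3.72 in AG1296 10 uM, 4.23, 4.45 and 4.06 in AG1296 1 uM, and 3.45, 3.57 and 3.53 in untreated cells. The AG1296 1 uM arrays lay above all 9 others, and the untreated arrays lay below all others. The log2 difference of AG1296 1 uM from untreated was 0.73 ± 0.10 (SE, n = 3 each; 95% interval 0.52 to 0.95; limma adjusted p = 0.000761), a 1.66-fold higher level. It was called in all 18 alternatives that could be fitted; the dim-gene filter left Tek out. In PDGF-AB against AG1296 1 uM the difference was -0.49 (limma adjusted p = 0.00907), and 0.0523 with only those 6 arrays. At 10 uM Tek was 0.27 above untreated (limma adjusted p = 0.272) and 0.46 below AG1296 1 uM on the log2 scale (limma adjusted p = 0.0868), so a difference between the doses was not called. Tie1 was called in no comparison, with all values between 2.89 and 3.51.

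Of the angiopoietins, Angpt2, which can block or activate Tek, was higher in PDGF-AB than in AG1296 1 uM cells by 0.82 (limma adjusted p = 0.00574). Angpt2 was also a dim signal, below the median of gene means. Angpt1 was called in no comparison. Ptprb, the tyrosine phosphatase that removes phosphate from Tek in endothelial cells, moved the other way to Tek at 1 uM. It was 7.83, 8.01 and 8.12 in PDGF-AB cells, 7.24, 7.18 and 7.25 in AG1296 10 uM, 6.67, 6.58 and 6.65 in AG1296 1 uM, and 7.94, 7.86 and 7.91 in untreated cells. The 2 AG1296 groups lay below the others and did not overlap each other, with a log2 difference from untreated of -0.68 at 10 uM (limma adjusted p = 0.000825) and -1.27 at 1 uM (limma adjusted p = 1.92e-06). Of the 10 endothelial markers 8 were below the median of gene means, and only Ptprb was called. Their mean was 3.84 to 4.01 in PDGF-AB arrays, 3.73 to 3.86 in AG1296 10 uM, 3.62 to 3.80 in AG1296 1 uM and 3.83 to 3.95 in untreated arrays. The sort had selected CD31- cells, and Pecam1 stayed between 2.87 and 3.32 in all arrays. The part of endothelial cells in the Tek result was not tested.

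The MET family holds Met, the receptor of hepatocyte growth factor, and Mst1r (RON), the receptor of macrophage-stimulating protein. Both were above the median of gene means and both were called. Met was 6.71, 6.87 and 6.84 in PDGF-AB cells, 6.62, 6.88 and 6.48 in AG1296 10 uM, 6.44, 6.48 and 6.31 in AG1296 1 uM, and 6.83, 6.91 and 6.78 in untreated cells. The AG1296 1 uM arrays lay below all PDGF-AB and all untreated arrays, and the AG1296 10 uM arrays overlapped both. Met fell in AG1296 1 uM against untreated by 0.43 ± 0.11 on the log2 scale (SE, n = 3 each; limma adjusted p = 0.0430). It was 0.40 higher in PDGF-AB against AG1296 1 uM (limma adjusted p = 0.0473). The first missed the threshold when 1 untreated or 1 AG1296 1 uM array was left out, whichever it was, and without AG1296 10 uM replicate 1, PDGF-AB replicate 2 or PDGF-AB replicate 3, with an adjusted p of up to 0.154; median centring gave 0.0723. The second missed it when any 1 PDGF-AB, AG1296 1 uM or untreated array was left out, and without AG1296 10 uM replicate 1, with an adjusted p of up to 0.157; it was 0.0984 after median centring and 0.0686 with only those 6 arrays.

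Mst1r went the other way. It was 5.09, 4.75 and 4.77 in PDGF-AB cells, 5.38, 5.17 and 5.11 in AG1296 10 uM, 5.50, 5.28 and 5.64 in AG1296 1 uM, and 5.14, 4.99 and 5.07 in untreated cells. The AG1296 1 uM arrays lay above all untreated and all PDGF-AB arrays. In PDGF-AB against AG1296 1 uM Mst1r was lower (log2 difference -0.60 ± 0.12, SE, n = 3 each; limma adjusted p = 0.0091), which held in all 19 alternatives. Its difference of AG1296 1 uM from untreated, 0.40, was not called (limma adjusted p = 0.110).

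Of 55 listed ligand genes 49 were measured. They were chosen with earlier results of these data known, so the shares beside all genes are descriptive only. Against untreated cells 1 was called in PDGF-AB (2.04%, beside 0.331% of all genes), 4 in AG1296 10 uM (8.16%, beside 1.88%) and 5 in AG1296 1 uM (10.2%, beside 3.2%). PDGF-AB gave 7 against AG1296 10 uM (14.3%, beside 3.42%) and 6 against AG1296 1 uM (12.2%, beside 5.21%), and AG1296 10 uM against 1 uM gave 2 (4.08%, beside 0.376%). Hgf, the ligand of Met, was the 1 ligand gene called in PDGF-AB against untreated, and a dim signal, below the median of gene means. It was 4.71, 4.79 and 4.33 in PDGF-AB cells, 2.92, 2.89 and 3.20 in AG1296 10 uM, 3.05, 3.17 and 3.07 in AG1296 1 uM, and 3.67, 3.27 and 3.30 in untreated cells. All PDGF-AB arrays were above all others and all AG1296 arrays were below all untreated ones. The log2 difference of PDGF-AB was 1.20 ± 0.14 from untreated (SE, n = 3 each; limma adjusted p = 0.00247; 0.0551 with only those 6 arrays), 1.61 from AG1296 10 uM (limma adjusted p = 1.26e-05) and 1.52 from AG1296 1 uM (limma adjusted p = 1.08e-05). Mst1, the ligand of Mst1r, was called in none.

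**Figure D5:**
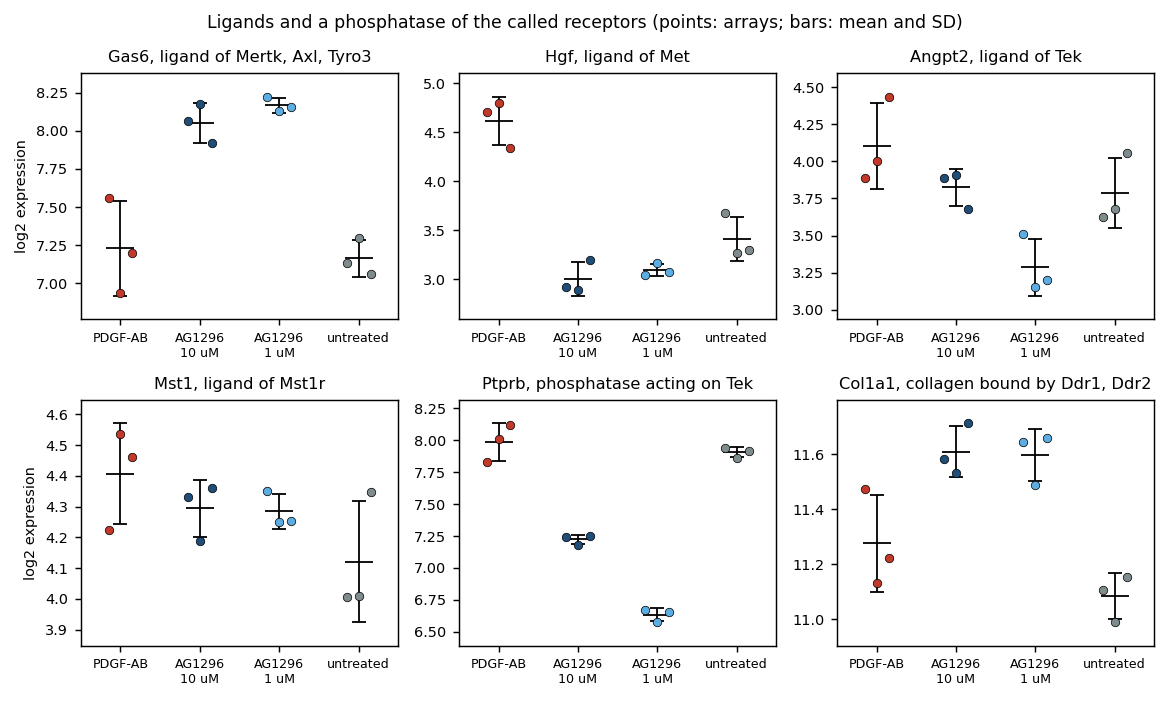
Log2 expression by group of Gas6, Hgf, Angpt2, Mst1 and Col1a1, which encode ligands of called receptors, and of the phosphatase gene Ptprb, with points for arrays and bars for the mean and SD. Gas6 is higher in the AG1296 arrays, and Hgf is highest in the PDGF-AB arrays, from 4.33 to 4.79.

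The DDR receptors are collagen receptors: Ddr2 binds fibrillar collagens and is typical of fibroblasts, and Ddr1 is better known from epithelial cells. They were called in opposite directions in PDGF-AB against AG1296 1 uM. Ddr1 was 7.93, 7.66 and 7.71 in PDGF-AB cells, 8.24, 8.28 and 8.20 in AG1296 10 uM, 8.24, 8.14 and 8.15 in AG1296 1 uM, and 7.90, 7.95 and 7.90 in untreated cells. All AG1296 arrays were above all the others. Ddr1 was lower in PDGF-AB than in AG1296 10 uM cells (log2 difference -0.48 ± 0.08, SE, n = 3 each; limma adjusted p = 0.00599) and lower than in AG1296 1 uM cells (-0.41, limma adjusted p = 0.0116). The second call was lost without AG1296 1 uM replicate 1 (0.0621), PDGF-AB replicate 2 (0.0528) or PDGF-AB replicate 3 (0.0507). With only the 6 arrays compared, the adjusted p was 0.0554 against AG1296 10 uM and 0.0718 against AG1296 1 uM. Against untreated cells Ddr1 was 0.33 higher at 10 uM (limma adjusted p = 0.0861) and 0.26 higher at 1 uM (limma adjusted p = 0.159), both short of the threshold.

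Ddr2 stood at 9.58, 9.55 and 9.67 in PDGF-AB cells, 9.53, 9.58 and 9.45 in AG1296 10 uM, 9.29, 9.29 and 9.24 in AG1296 1 uM, and 9.59, 9.47 and 9.46 in untreated cells. The AG1296 1 uM arrays lay below all the others, and the remaining groups overlapped. In PDGF-AB against AG1296 1 uM it was higher by 0.33 ± 0.08 (SE, n = 3 each; limma adjusted p = 0.0300), a call lost whichever AG1296 1 uM array was left out, and with PDGF-AB replicate 1 or 3 left out, with an adjusted p of up to 0.114; it was 0.0690 after median centring and 0.102 with only those 6 arrays. Of the collagen genes in the fibroblast list, Col1a1 rose by 0.53 at 10 uM (limma adjusted p = 0.0161) and 0.51 at 1 uM (limma adjusted p = 0.0131). Col3a1 rose by 0.54 at 10 uM (limma adjusted p = 0.00655) and 0.37 at 1 uM (limma adjusted p = 0.0480), all against untreated. Col1a2, the other collagen gene of that list, was not called at either dose against untreated. When 1 array was left out, the Col1a1 calls were lost in 4 of 12 fits at 10 uM and 3 at 1 uM, and the Col3a1 call at 1 uM in 10. Of the 6 epithelial and mesothelial markers 2 were called in AG1296 1 uM against untreated: Upk3b was higher and Krt19 lower. The Krt19 call was lost in 4 of the 12 fits that leave out 1 array, those without AG1296 1 uM replicate 2 or 3 or untreated replicate 1 or 2 (adjusted p up to 0.0692).

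Eph receptors carry signals between touching cells. Of the EphA receptors, 7 were listed and measured, 2 were above the median of gene means and 1, Epha2, was called. Epha2 was 8.42, 8.10 and 8.25 in PDGF-AB cells, 7.85, 7.90 and 7.83 in AG1296 10 uM, 7.90, 7.74 and 7.62 in AG1296 1 uM, and 8.14, 8.22 and 8.01 in untreated cells. All AG1296 arrays were below all the others. It was 0.51 ± 0.10 higher in PDGF-AB than in AG1296 1 uM cells (SE, n = 3 each; limma adjusted p = 0.0103), a call lost without AG1296 1 uM replicate 3 (0.0526) and with only those 6 arrays (0.0535). PDGF-AB against AG1296 10 uM was 0.40 (limma adjusted p = 0.0568), and AG1296 1 uM against untreated was -0.37 (limma adjusted p = 0.0857).

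Of the EphB receptors 4 were measured and none was called, with log2 differences between -0.38 and 0.22. Ephb4, an Eph receptor of veins, lay between 6.76 and 7.10, and Ephb3 between 4.84 and 5.21. Ephb1 had 2 probe sets, which differed in sign in all 6 comparisons and were not called in any. Efnb2, the ephrin that binds Ephb4, fell with both AG1296 doses. It was 7.70, 7.66 and 7.70 in PDGF-AB cells, 7.01, 7.04 and 6.95 in AG1296 10 uM, 7.17, 6.99 and 6.95 in AG1296 1 uM, and 7.57, 7.48 and 7.54 in untreated cells. The AG1296 arrays lay below all the others, with log2 differences from untreated of -0.53 at 10 uM (limma adjusted p = 0.00399) and -0.49 at 1 uM (limma adjusted p = 0.00353). No ephrin-A gene was called.

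Ptk7 and Ryk are receptors whose kinase domain is inactive and which take part in Wnt signalling. Ptk7 was 7.41, 7.26 and 7.08 in PDGF-AB cells, 7.09, 7.02 and 6.83 in AG1296 10 uM, 6.85, 6.76 and 6.67 in AG1296 1 uM, and 6.92, 6.90 and 7.04 in untreated cells. The PDGF-AB arrays lay above the untreated and AG1296 1 uM arrays and overlapped AG1296 10 uM. It was called in PDGF-AB against AG1296 1 uM, where it was 0.49 ± 0.10 higher (SE, n = 3 each; limma adjusted p = 0.0122), and lost without AG1296 1 uM replicate 3 (0.0569) or PDGF-AB replicate 1 (0.0552). Its PDGF-AB difference from untreated, 0.29, was not called (limma adjusted p = 0.408). Ryk was between 8.94 and 9.27 and was not called, with PDGF-AB arrays below all others (PDGF-AB against AG1296 10 uM, -0.26, limma adjusted p = 0.0987). Wnt5a, a Wnt ligand, was called in no comparison.

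Among the class III receptors, Kit is itself a target of AG1296. Kit was 3.54, 3.38 and 3.66 in PDGF-AB cells, 3.53, 3.62 and 3.77 in AG1296 10 uM, 3.40, 3.63 and 3.51 in AG1296 1 uM, and 3.57, 3.48 and 3.50 in untreated cells. The groups overlapped, and no comparison was called (smallest limma adjusted p of the class, 0.586). None of the 6 mast cell markers was above the median of gene means or called. Csf1r, the receptor of macrophage colony-stimulating factor, lay between 3.59 and 4.14. Kitl, the ligand of Kit, was 0.54 higher in PDGF-AB than in AG1296 10 uM cells (limma adjusted p = 0.00392).

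The VEGF receptors were called in no comparison, and of their ligands Vegfc and Vegfd are described here because they were called. Flt1 lay between 4.21 and 4.93 and Flt4 between 3.50 and 4.04, with log2 differences for the 3 receptors between -0.28 and 0.34. Vegfc, a ligand of Flt4, rose in AG1296 1 uM cells. It was 5.75, 5.81 and 5.68 in PDGF-AB cells, 5.96, 6.00 and 6.07 in AG1296 10 uM, 6.67, 6.70 and 6.55 in AG1296 1 uM, and 5.87, 5.94 and 5.95 in untreated cells. The AG1296 1 uM arrays lay above all the others: 0.72 over untreated (limma adjusted p = 0.000143), and the difference of AG1296 10 uM from AG1296 1 uM was -0.63 (limma adjusted p = 0.00476; 0.0645 with only those 6 arrays). Vegfd, another ligand of Flt4, rose by 0.80 at 10 uM (limma adjusted p = 0.000234) and 0.77 at 1 uM (limma adjusted p = 0.000157) against untreated.

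The ErbB receptors, which bind EGF and neuregulin ligands, gave 0 calls among 4, with a smallest limma adjusted p of 0.0940. Egfr lay between 6.40 and 6.91 and Erbb2 between 5.48 and 5.88. Erbb3 had the widest spread and was picked out after its values were seen. It was 4.22, 3.15 and 3.58 in the untreated arrays, an SD of 0.54. Ereg, an ErbB ligand, fell by 0.50 in AG1296 10 uM cells against untreated (limma adjusted p = 0.00487), and Hbegf was 0.38 higher in PDGF-AB than in AG1296 10 uM cells (limma adjusted p = 0.0265), a call lost without AG1296 10 uM replicate 1 or 3 or any 1 PDGF-AB array (up to 0.108) and with only those 6 arrays (0.122).

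The insulin receptor Insr lay between 6.42 and 6.79, and its relative Insrr between 2.45 and 2.92. Neurotrophin receptors Ntrk3 and Ntrk2 lay between 2.37 and 2.89. Ret, the receptor of GDNF-family ligands, spanned 3.66 to 4.52, Ltk 4.23 to 4.94 and Alk 2.94 to 3.49. Ros1 spanned 2.65 to 3.50 and Musk, the muscle receptor for agrin, 2.39 to 2.96. None of these 9 receptors was called in any comparison. Ptn, a heparin-binding growth factor that has been linked to Alk, fell by 1.07 in AG1296 1 uM cells against untreated (limma adjusted p = 0.00072). Its signal was below the median of gene means.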

How the data were processed

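Total RNA (100 ng) of 12 samples was labelled with biotin and run on a 1-colour array. The authors deposited log2 expression, 1 value per probe set and array; RMA and limma are named in the submitters' processing notes, without versions. Per the files' annotation, 28853 probe sets were listed: 5443 had no symbol, 1621 several and 21789 a single one, of which 21698 were matched by gene ID. The brightest probe set stood for each of 19938 genes.

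A limma 3.58.1 (R 4.3.3) fit of 1 mean per group over 12 arrays gave each comparison, with Benjamini-Hochberg adjustment over all genes and a call at 0.05. The residual degrees of freedom were 8, and the small number of arrays limits precision. The median pooled SD was 0.130 for the receptors and 0.147 for all genes. On simulated data for AG1296 10 uM against untreated with 19938 genes and 200 changed, 50.7% of log2 changes of 0.5 and 98.8% of changes of 1 were found, with 4.43% of calls false.

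Receptors, ligands and marker lists were chosen with earlier results of these data known. Receptors called in any comparison, and Kit, are given array by array. Up to 2 of the brightest receptors per uncalled subfamily and the defining markers are given by range, and called ligands and markers by array or by difference. Promoters are RefSeq sequences (GRCm38.p6). Protein sequences were not used here. Alternatives were quantile normalization, median centring, dim genes left out, the mean of probe sets, trend and robust moderation, the replicate block, only the 6 arrays compared and leaving out each array. Each called receptor had 1 probe set with a single symbol, so the mean of probe sets did not alter its values.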

Additional observations from a re-analysis of the deposited data

How the results depend on the processing

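Counts of called receptors moved by over 1.5 times as follows. For AG1296 1 uM against untreated (2), median centring gave 1, leaving out dim genes 6, trend and robust moderation 7, and leaving out 1 array 1 to 3. For AG1296 10 uM against untreated (1), leaving out dim genes or trend and robust moderation gave 2, and leaving out 1 array 1 to 2. For PDGF-AB against AG1296 1 uM (8), median centring gave 5, only the 6 arrays compared 2, and leaving out 1 array 3 to 9. For PDGF-AB against AG1296 10 uM (2), leaving out dim genes or trend and robust moderation gave 4, only the 6 arrays 1, and leaving out 1 array 2 to 3. For any difference among the 4 groups (5), leaving out dim genes gave 8, trend and robust moderation 10, and leaving out 1 array 3 to 5. The other 2 comparisons had 0 receptors in each alternative. Fewer genes were tested without dim genes (9969, with 18 receptors), and fewer arrays in the 6-array fits; the causes of the other changes were not tested. The replicate block gave 0, 2, 1, 0, 9, 3 and 7 calls in the order PDGF-AB, then the 1 uM dose, then the 10 uM dose against untreated, the 10 uM dose against the 1 uM dose, PDGF-AB against the 1 uM and then the 10 uM dose, and the F test. It added Mertk in PDGF-AB against the 1 uM dose (adjusted p = 0.0400) and Epha2 against the 10 uM dose (adjusted p = 0.0478). The labels give no meaning to the replicate numbers. The 6 pairs of replicate 2 arrays correlated at 0.154 to 0.298, but over all 18 same-numbered pairs the range was -0.0307 to 0.298, and over 36 pairs of different numbers -0.243 to 0.181. Replicate 3 pairs among the AG1296 and untreated groups correlated at 0.162 to 0.217, but those with PDGF-AB replicate 3 at -0.0307 to 0.0347. Replicate 1 pairs lay between -0.0160 and 0.0651. Replicate 2 against replicate 3 among the AG1296 and untreated groups gave -0.243 to -0.171. PDGF-AB replicate 1 correlated with replicate 3 of AG1296 1 uM at 0.181, of AG1296 10 uM at 0.0814 and of untreated at 0.0876. Since not every same-numbered pair was above 0.1, the numbers were not taken as pairing the samples. Whether some arrays of different groups shared a batch was not tested. The main fit leaves any such shared variation in its spread. No receptor called in the main analysis turned its direction. For these receptors, quantile normalization, median centring and leaving out an array of the comparison change the log2 difference. The other alternatives leave it as it was, so they could not turn a direction. Of 581 receptor values under the alternatives, 486 kept their side of the threshold, which includes results called neither before nor after. Of the rest, 64 lost a call of the main analysis and 31 gained one.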

Other observations

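Of 44 listed adaptors, ligases, phosphatases and other regulators of these receptors 43 were measured, and 8 were called in PDGF-AB against each AG1296 dose, 4 higher and 4 lower. The background in these comparisons was 3.42% at 10 uM and 5.21% at 1 uM. Grb14, an adaptor that restrains receptor signalling, rose by 1.17 at 10 uM (limma adjusted p = 3.31e-05) and 1.09 at 1 uM (limma adjusted p = 1.78e-05) against untreated. It was 6.30, 6.26 and 6.31 in PDGF-AB cells, 7.60, 7.66 and 7.42 in AG1296 10 uM, 7.45, 7.61 and 7.38 in AG1296 1 uM, and 6.49, 6.43 and 6.25 in untreated cells. Cblb, a ubiquitin ligase for receptors, was 0.66 higher in PDGF-AB than in AG1296 10 uM cells (limma adjusted p = 0.000986) and 0.81 higher than in AG1296 1 uM cells (limma adjusted p = 0.000109). Lrig1, an inhibitor of several receptors, was 0.75 higher (limma adjusted p = 0.000282) and 0.87 higher (limma adjusted p = 4.34e-05) in the same comparisons, and Gab1, an adaptor, was lower, with differences of -0.62 (limma adjusted p = 0.00386) and -0.57 (limma adjusted p = 0.00506).

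Of the coreceptors, 9 were measured. Against untreated cells 3 were called at 10 uM (33.3%, beside 1.88% of all genes) and 2 at 1 uM (22.2%, beside 3.2%). Nrp2, which works with VEGF receptors, fell by 0.52 in AG1296 1 uM against untreated (limma adjusted p = 0.00163). Cd44, a hyaluronan receptor that can act with Met, fell by 0.58 at 10 uM (limma adjusted p = 0.00358) and 0.42 at 1 uM (limma adjusted p = 0.0181); the 1 uM call was lost in 6 of the 12 fits that leave out 1 array. Lrp4, the coreceptor of Musk, rose by 0.56 at 10 uM (limma adjusted p = 0.00991), a call lost in 3 of the 12 fits that leave out 1 array. The Lrp4 signal was below the median of gene means. Sdc1, the other coreceptor called at 10 uM, rose by 0.40 (limma adjusted p = 0.0495). Its call was lost in 10 of the 12 fits that leave out 1 array and in 4 of the 7 other alternatives. Of 10 receptors outside the list, 4 were called in PDGF-AB against each AG1296 dose (40%, beside 3.42% of all genes at 10 uM and 5.21% at 1 uM). Against untreated cells 2 were called at each dose (20%, beside 1.88% and 3.2%). Fgfrl1 rose by 0.54 at both doses against untreated (limma adjusted p = 0.00655 at 10 uM and 0.00411 at 1 uM). Pdgfra was lower, by -0.40 at 10 uM (limma adjusted p = 0.0361) and -0.91 at 1 uM (limma adjusted p = 3.84e-05). Its 10 uM call was lost in 10 of the 12 fits that leave out 1 array. Igf1r was lower in PDGF-AB than in AG1296 10 uM cells (-0.60, limma adjusted p = 0.000542).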
